A study of Homo sapiens with 12 samples.

Results

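The collagen chain genes are the protein-coding genes whose symbol is COL, a number, the letter A and a number. They were chosen by symbol alone, and 44 of the 60660 gene identifiers in the deposited table were members. RNA was counted 48 h after treatment in 12 libraries of cells labelled as HS578T, an established breast cancer cell line, in 4 groups of 3. The first group, labelled as lacking 1 copy of the short arm of chromosome 17 (17p, titled 17PKO), received 1 µM doxorubicin, and the second, labelled WT and titled Cas9, received 170 nM. Doxorubicin is an anthracycline that traps topoisomerase on DNA. The other groups were 17PKO and Cas9 cells in the vehicle DMSO. All 4 groups share the parental line, and the labels do not say whether either population is a single clone. The groups are called 17p-deleted and 17p-intact here, after their genotype labels. Genotype and dose differ together between the treated groups and cannot be told apart there. Any other difference between the populations also goes with the genotype label.

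Collagen chains assemble in trimers around a helix of glycine-X-Y repeats, and each class of chain builds a different structure outside the cell. Fibrillar chains build cross-banded fibrils, network chains build meshes such as that of basement membranes, and fibril-associated chains with interrupted helices (FACIT) coat fibrils. Beaded-filament chains link cells to the surrounding matrix, anchoring-fibril chains tie basement membranes to the tissue below, and transmembrane chains sit in the plasma membrane. Collagen I, made of the products of COL1A1 and COL1A2, is the main fibrillar collagen of connective tissue and of mesenchymal cells.

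The repeat is visible in the genes themselves. A glycine-X-Y triplet takes 9 coding bases, and in the fibrillar members a median of 85.2% of coding exons had a length divisible by 9. Fibrillar members also had a median of 29 coding exons of exactly 54 bases. Over the 40 members with at least 20 coding exons the median share was 65.7%, against 13.0% in 2354 other protein-coding genes with at least 20 coding exons (GENCODE 29). Members of the network class made by COL4A1, COL4A2 and their relatives lie in pairs that run head to head. By RefSeq start sites, COL4A1 and COL4A2 were 126 bases apart on chromosome 13, COL4A6 and COL4A5 were 379 apart on the X chromosome, and COL4A4 and COL4A3 were 418 apart on chromosome 2.

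Upstream sequence is shown for COL7A1, COL27A1 and COL4A5, and for the stretch that COL4A1 and COL4A2 share. RNA of the first 3 genes was higher in every deleted doxorubicin library than in any library of the other groups. RefSeq (GRCh38.p14) held a promoter entry for 32 of the 44 members. The first 3 sequences are the 250 bases before the RefSeq start, 5′ to 3′ on the gene's own strand, and capitals mark 3 motifs on either strand: the GC box core GGGCGG, the CCAAT box, and TATAA of the TATA box. The positions are chr3:48595330-48595579 on the minus strand, chr9:114155287-114155536 on the plus strand and chrX:108439588-108439837 on the plus strand. The shared stretch between the COL4A1 and COL4A2 starts is chr13:110307158-110307283, shown on the plus strand, the strand of COL4A2.
COL7A1: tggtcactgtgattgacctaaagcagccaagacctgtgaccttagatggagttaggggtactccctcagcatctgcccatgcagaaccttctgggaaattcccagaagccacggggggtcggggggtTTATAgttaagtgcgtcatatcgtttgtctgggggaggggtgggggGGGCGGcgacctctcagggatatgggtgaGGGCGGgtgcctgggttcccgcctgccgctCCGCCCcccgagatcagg
COL27A1: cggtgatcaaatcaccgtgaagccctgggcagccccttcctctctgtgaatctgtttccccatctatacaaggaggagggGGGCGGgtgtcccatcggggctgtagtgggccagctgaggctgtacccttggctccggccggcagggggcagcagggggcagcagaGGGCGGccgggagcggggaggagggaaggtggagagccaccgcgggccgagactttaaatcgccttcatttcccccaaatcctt
COL4A5: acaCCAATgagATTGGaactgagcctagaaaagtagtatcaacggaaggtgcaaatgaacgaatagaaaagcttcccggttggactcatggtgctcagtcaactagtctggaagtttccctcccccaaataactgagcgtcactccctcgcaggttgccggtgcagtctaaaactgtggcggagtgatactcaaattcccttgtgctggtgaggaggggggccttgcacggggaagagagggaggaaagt
COL4A1 and COL4A2: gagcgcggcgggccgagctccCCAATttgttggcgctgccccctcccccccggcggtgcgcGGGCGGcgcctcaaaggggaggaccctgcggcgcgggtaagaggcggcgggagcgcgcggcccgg
GGGCGG occurred 3 times upstream of COL7A1, 2 times upstream of COL27A1 and 1 time in the shared stretch, and was found in 42.6% of 35116 promoter windows of 250 bases. CCAAT occurred 2 times upstream of COL4A5 and 1 time in the shared stretch, against 32.0% of windows with at least 1 match. TATAA occurred 1 time, upstream of COL7A1, against 18.9% of windows. The shared stretch held 20 CpG dinucleotides in 126 bases, and the median window of 250 bases held 11. A match is a run of letters, not a measured binding site.

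Library totals were 66150539 to 99142099 counts, and levels are given as CPM (counts per 1000000, scaled between libraries by the trimmed mean of M values). A floor of 3 counts amounted to between 0.0305 and 0.0444 CPM. Replicate 2 of the deleted DMSO group and replicate 1 of the intact doxorubicin group stood apart in mitochondrial share, with 6.90% and 5.54% of counts against 2.61% to 3.57% elsewhere. In both, GC-rich genes were low for their group (Spearman rho of deviation with GC content across genes, -0.508 and -0.442). The trend ran the other way in replicate 2 of intact doxorubicin (0.481) and replicates 1 and 3 of deleted DMSO (0.353 and 0.431). Replicate 2 of intact doxorubicin also differed most from its group (chi-square per degree of freedom 168 and 117, against 78.4 between replicates 1 and 3). In a check against the recorded karyotype of the line, 12 of 12 libraries did not match, so the cells are named only as labelled. POLR2A, the 17p gene checked for the deletion, which encodes a subunit of RNA polymerase II, was at 719.6, 725 and 770.5 CPM in deleted and 858, 607 and 673 CPM in intact doxorubicin libraries, and at 543, 780.3 and 483 CPM in deleted and 489, 526 and 432 CPM in intact DMSO libraries. Its values in the libraries labelled deleted were not below those of the intact libraries as a group in either treatment. MDM2 and CDKN1A, targets of p53, were checked for the drug response. MDM2 was at 2131, 2114 and 2162 CPM in deleted doxorubicin libraries and 137, 93.6 and 143 CPM in intact ones, against 187, 230.4 and 176 CPM and 119, 118 and 114 CPM in the deleted and intact DMSO libraries. CDKN1A was at 1297, 1115 and 1282 CPM in deleted doxorubicin libraries and 63.2, 88.5 and 79.8 CPM in intact ones, against 82.8, 50.7 and 84.5 CPM and 62.7, 64.98 and 72.0 CPM in the deleted and intact DMSO libraries. Mesenchymal markers were present, with VIM at 989.6 CPM or more and FN1 at 1309 CPM or more in every library, and of 8 epithelial markers 3 or 4 were at 1 CPM or more in a group mean. The keratin genes KRT8 and KRT18 stood at 251 to 371 CPM and 131 to 248 CPM, the epithelial list summed to 385 to 620.2 CPM, and CDH1 and EPCAM were at most 0.441 CPM. Blood and endothelial lists summed to at most 4.71 CPM and 1.75 CPM.

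Collagen RNA in these cells was mostly the RNA of a few chains. Of the 44 members, 6 were at 100 CPM or more in all 12 libraries, 21 were at 1 CPM or more in all 12, and 15 were below 1 CPM in all 12. COL1A1 led in every group. Per kilobase of its longest transcript it was at 98.7 ± 3.44 CPM in deleted doxorubicin libraries, 285 ± 17.8 in intact doxorubicin, 198 ± 19.1 in deleted DMSO and 344 ± 7.50 in intact DMSO (SD, n = 3 each). By CPM it was the 118th, 31st, 43rd and 19th most abundant gene of all in those groups, in the same order. COL5A2, COL6A1, COL4A2, COL5A1, COL6A2 and COL12A1 lay between 27.3 and 101.2 CPM per kilobase in every group mean. COL18A1, COL4A1 and COL7A1 were the next in intact DMSO libraries. COL7A1 stood at 34.2 ± 7.67 CPM per kilobase in deleted doxorubicin libraries, above COL12A1 and COL5A1 there, and at 10.5 ± 0.911 in intact doxorubicin, 5.42 ± 1.80 in deleted DMSO and 15.5 ± 2.24 in intact DMSO.

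**Figure D1:**
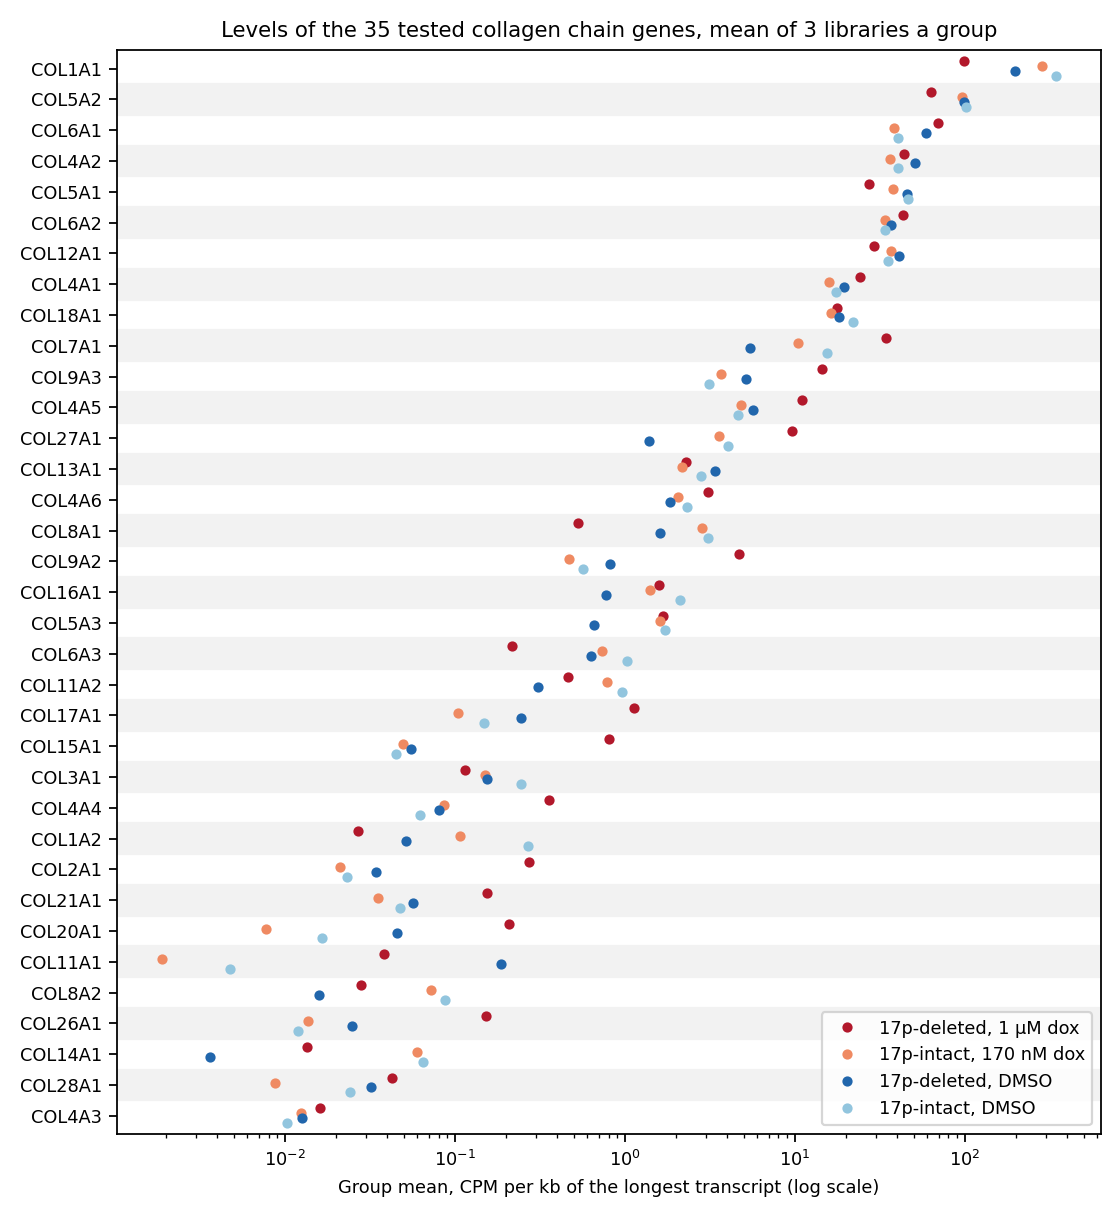
Mean level of each of the 35 tested members in the 4 groups, in CPM per kilobase of the longest transcript on a log axis, with 1 point for each group of 3 libraries. COL1A1 is at the top of the scale in every group, and COL1A2, its partner chain, lies in the lower part of the list.

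Filtering on low counts left 35 members for testing among 21803 genes. The 9 members that were not tested, COL10A1, COL19A1, COL22A1, COL23A1, COL24A1, COL25A1, COL6A5, COL6A6 and COL9A1, held 4 to 123 counts over the 12 libraries and at most 0.356 CPM in any of them. COL3A1, which encodes the chain of collagen III, a companion of collagen I in soft tissue, was tested but low, at 0.563, 0.795 and 0.551 CPM in deleted doxorubicin, 0.921, 0.522 and 1.04 in intact doxorubicin, 0.918, 0.923 and 0.733 in deleted DMSO and 1.15, 1.66 and 1.23 in intact DMSO libraries. The groups were tested with edgeR's quasi-likelihood F test, and p-values were adjusted over all genes tested, with a threshold of 0.05. A member is said to have risen or fallen only where it passed that threshold. Whether the 3 libraries of a group are separate cultures is not in the labels. The p-values then measure only how far these libraries differ, and part of that may be technical. In bulk RNA, fewer cells of a kind and less RNA per cell cannot be told apart.

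In 17p-deleted cells, 1 µM doxorubicin changed most of the tested collagen genes, in both directions. The abundant fibrillar chains of collagens I and V fell, while other genes of lower level in DMSO rose. Those that rose included the anchoring chain COL7A1 and several FACIT and network chains. COL8A1, COL6A3, COL13A1 and COL11A1, also of lower level in DMSO, fell. Of the 35 tested members 15 rose, against 17.5% of all genes tested, and 8 fell, against 13.1%. The median log2 fold change over the tested members was 0.60, against -0.02 over all genes tested. Among the 24 members with a mean of at least 1 CPM, 11 rose and 7 fell (45.8% and 29.2%), and of the genes at that level 20.2% rose and 16.6% fell. By class, 3 rose and 4 fell of 10 tested fibrillar members, 3 rose and 1 fell of 8 network members, and 5 rose and 1 fell of 7 FACIT members. Of 4 tested beaded-filament members 1 fell and 3 did not pass. Leaving out any 1 library gave 14 to 16 higher and 7 to 9 lower, and leaving out both libraries that stood apart gave 15 higher and 10 lower.

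Sums of marker lists also differed between these groups. All 8 mesenchymal markers were at 1 CPM or more in each group mean, and summed to 3025 to 3083 CPM in deleted doxorubicin and 4366 to 5000.1 CPM in deleted DMSO libraries. In intact cells the sums were 5361 to 5711 CPM in doxorubicin and 6081 to 6437 CPM in DMSO. The pericyte and smooth muscle markers summed to 216 to 261 CPM in deleted doxorubicin and 86.7 to 144 CPM in deleted DMSO libraries. The part of either list in the collagen results was not tested.

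COL1A1 (ENSG00000108821.14, chr17:50183289-50201632, minus strand, hg38) was at 684, 669.9 and 639 CPM in deleted doxorubicin libraries and 1460.1, 1203 and 1328 CPM in deleted DMSO libraries. Every treated library was below every DMSO library, and the fall was close to 2-fold (log2 fold change -1.0, SE 0.09, edgeR adjusted p = 1.36e-06). COL5A2, a chain of collagen V, which sets the width of collagen I fibrils, was at 437, 457 and 449.7 CPM in treated and 769, 637 and 699 CPM in DMSO deleted libraries (log2 fold change -0.65, SE 0.11, edgeR adjusted p = 7.03e-04). COL5A1, its main partner, was at 226, 227 and 243 CPM after doxorubicin and 461, 278 and 428 CPM in DMSO (log2 fold change -0.75, SE 0.16, edgeR adjusted p = 0.00235). The groups did not overlap for either gene, although replicate 2 of the DMSO group was low for COL5A1. COL12A1, a FACIT chain that sits on collagen I fibrils, fell as well, with 352, 333 and 341 CPM in treated against 517, 482 and 445 CPM in DMSO libraries (log2 fold change -0.49, SE 0.12, edgeR adjusted p = 0.00536).

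Falls larger than that of COL1A1 were found in COL8A1, COL6A3 and COL11A1, chains of lower level, and COL13A1 had a smaller one. COL8A1, a short-chain network collagen of vessel walls and of the corneal Descemet membrane, was at 2.83, 3.35 and 2.90 CPM in deleted doxorubicin libraries and 9.86, 8.61 and 9.09 CPM in deleted DMSO libraries (log2 fold change -1.60, SE 0.11, edgeR adjusted p = 1.69e-07). COL6A3, the long chain of the collagen VI beaded filament, was at 2.79, 2.17 and 2.002 CPM after doxorubicin and 7.84, 5.82 and 6.81 CPM in DMSO (log2 fold change -1.56, SE 0.15, edgeR adjusted p = 3.36e-06). Treated libraries lay below all DMSO libraries for both. COL11A1, a minor fibrillar chain best known from cartilage, fell to 0.205, 0.356 and 0.275 CPM in treated cells, against 1.30, 1.30 and 1.52 CPM in DMSO (log2 fold change -2.29, SE 0.51, edgeR adjusted p = 0.00376). COL13A1, a transmembrane chain, was at 6.42, 7.86 and 7.63 CPM in treated and 13.1, 8.52 and 11.0 CPM in DMSO libraries (log2 fold change -0.57, SE 0.15, edgeR adjusted p = 0.0101). Its call was lost without replicate 1 of the deleted doxorubicin group or replicate 1 of the deleted DMSO group, with log2 fold changes of -0.49 and -0.42.

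COL7A1, the chain of the anchoring fibrils below epithelia, rose as well. It reached 248, 389.8 and 315 CPM in deleted doxorubicin libraries, against 55.9, 31.5 and 63.3 CPM in deleted DMSO libraries (log2 fold change 2.66, SE 0.23, edgeR adjusted p = 1.16e-06). Even the lowest treated library was well above the highest DMSO library. COL27A1, a fibrillar chain known from cartilage, was at 65.3, 81.4 and 76.5 CPM after doxorubicin and 11.1, 9.64 and 11.8 CPM in DMSO (log2 fold change 2.78, SE 0.12, edgeR adjusted p = 1.77e-09). Its groups were far apart and narrow. COL5A3, the third collagen V chain, rose while COL5A1 and COL5A2 fell, with 9.97, 10.0 and 10.9 CPM in treated and 5.37, 2.33 and 4.45 CPM in DMSO libraries (log2 fold change 1.34, SE 0.24, edgeR adjusted p = 7.39e-04).

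Among transmembrane, multiplexin and network members 5 rose, and COL4A5 had the highest DMSO level of these. COL17A1, the hemidesmosome chain that spans the membrane of basal epithelial cells, was at 5.77, 7.07 and 6.41 CPM in deleted doxorubicin libraries and 1.55, 1.37 and 1.23 CPM in deleted DMSO libraries (log2 fold change 2.21, SE 0.19, edgeR adjusted p = 1.07e-06). COL15A1, a multiplexin of the basement membrane zone, was at 4.57, 4.34 and 4.42 CPM and 0.518, 0.176 and 0.215 CPM in the same order of groups (log2 fold change 3.89, SE 0.44, edgeR adjusted p = 1.50e-05). Its DMSO libraries were near 0, with 35, 13 and 17 counts, so its fold depends on few counts. COL4A4, a chain of the kidney filter's basement membrane, was at 3.44, 3.62 and 3.73 CPM after doxorubicin and 0.873, 0.787 and 0.758 CPM in DMSO (log2 fold change 2.16, SE 0.25, edgeR adjusted p = 1.66e-05). COL4A5, whose chain joins that of COL4A4 in the kidney, was at 66.8, 73.5 and 73.8 CPM in treated and 39.6, 32.0 and 39.3 CPM in DMSO libraries (log2 fold change 0.95, SE 0.13, edgeR adjusted p = 1.04e-04). Its head-to-head neighbour COL4A6 was at 19.8, 21.6 and 21.3 CPM and 13.5, 9.56 and 14.4 CPM (log2 fold change 0.74, SE 0.17, edgeR adjusted p = 0.00417), and for all 5 genes the treated libraries were above every DMSO library. The main basement membrane pair did not pass. COL4A1 was at 157, 156 and 166 CPM in treated and 147, 111 and 129.5 CPM in DMSO libraries (log2 fold change 0.30, SE 0.14, edgeR adjusted p = 0.120), and COL4A2 at 280.0, 284 and 285 CPM and 396, 246 and 351 CPM (log2 fold change -0.23, SE 0.15, edgeR adjusted p = 0.276). With DMSO replicate 2 left out, COL4A2 passed as lower, at a log2 fold change of -0.42.

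FACIT chains rose in 5 of 7 tested cases, with COL12A1 the 1 that fell. COL9A2 and COL9A3 encode chains of collagen IX, which coats the collagen II fibrils of cartilage. COL9A2 was at 13.0, 14.1 and 13.5 CPM in deleted doxorubicin libraries and 2.87, 1.75 and 2.48 CPM in deleted DMSO libraries (log2 fold change 2.51, SE 0.17, edgeR adjusted p = 1.22e-07). COL9A3 was at 35.2, 36.8 and 35.8 CPM after doxorubicin and 14.1, 8.08 and 16.4 CPM in DMSO (log2 fold change 1.48, SE 0.23, edgeR adjusted p = 2.74e-04). Both pairs of groups were separate. COL9A1, whose chain completes that trimer, had 18 counts in all 12 libraries together and was left out of the tests. COL16A1 was at 7.68, 10.5 and 8.97 CPM in treated and 5.43, 3.19 and 4.71 CPM in DMSO libraries (log2 fold change 1.03, SE 0.18, edgeR adjusted p = 5.78e-04). COL20A1 was at 1.22, 1.82 and 2.002 CPM in treated and 0.311, 0.149 and 0.644 CPM in DMSO libraries (log2 fold change 2.18, SE 0.55, edgeR adjusted p = 0.00843), and COL21A1 rose at less than 1 CPM (1.43, SE 0.39). COL2A1, the main chain of cartilage fibrils, was at 1.63, 1.33 and 1.17 CPM after doxorubicin and 0.326, 0.0814 and 0.114 CPM in DMSO (log2 fold change 2.99, SE 0.63, edgeR adjusted p = 0.00251). COL26A1 rose from few counts, 37, 49 and 37 in treated and 2, 8 and 7 in DMSO libraries (2.57, SE 0.72). The calls of COL21A1 and COL26A1 were lost with DMSO replicate 1 left out (log2 fold changes 1.29 and 2.20), and that of COL21A1 also without replicate 2 of the deleted doxorubicin group (1.21). Of the 4 chondrocyte markers SOX9, ACAN, MATN3 and COMP, 2 were at 1 CPM or more in each deleted group mean. In each intact group mean it was 3. The 4 markers summed to 60.1 to 66.0 CPM in deleted doxorubicin and 63.7 to 93.7 CPM in deleted DMSO libraries. ACAN alone was at most 0.251 CPM in every library.

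The other 12 tested members did not pass in deleted cells. COL6A1 and COL6A2, the short chains of collagen VI, had log2 fold changes of 0.23, SE 0.10 and 0.22, SE 0.14, and COL18A1, the source of endostatin, at -0.04, SE 0.31. COL18A1 had 1 DMSO library far below the others, at 157, 52.6 and 150.0 CPM, against 125, 111 and 113 CPM in treated libraries. Without the 2 libraries that stood apart it passed as lower, at -0.41, SE 0.08. Its exons overlap those of SLC19A1 on the opposite strand, and those of COL9A3 overlap TCFL5, at 42.2 to 57.2 CPM in the group means (SLC19A1 14.5 to 33.4 CPM). The strand setting of the counting is not given in the sources used here, so these 2 collagen genes are uncertain to that extent. The same holds for COL4A3, whose exons overlap AC097662.1 on the opposite strand. In the group means AC097662.1 was at 0.833 to 2.18 CPM and COL4A3 at 0.0829 to 0.129 CPM. The log2 fold changes of COL1A2 (-0.92), COL3A1 (-0.43), COL4A3 (0.36), COL8A2 (0.81), COL11A2 (0.60), COL14A1 (1.86) and COL28A1 (0.41) came from lower levels, at most 3.79 CPM in any library of these 2 groups.

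**Figure D2:**
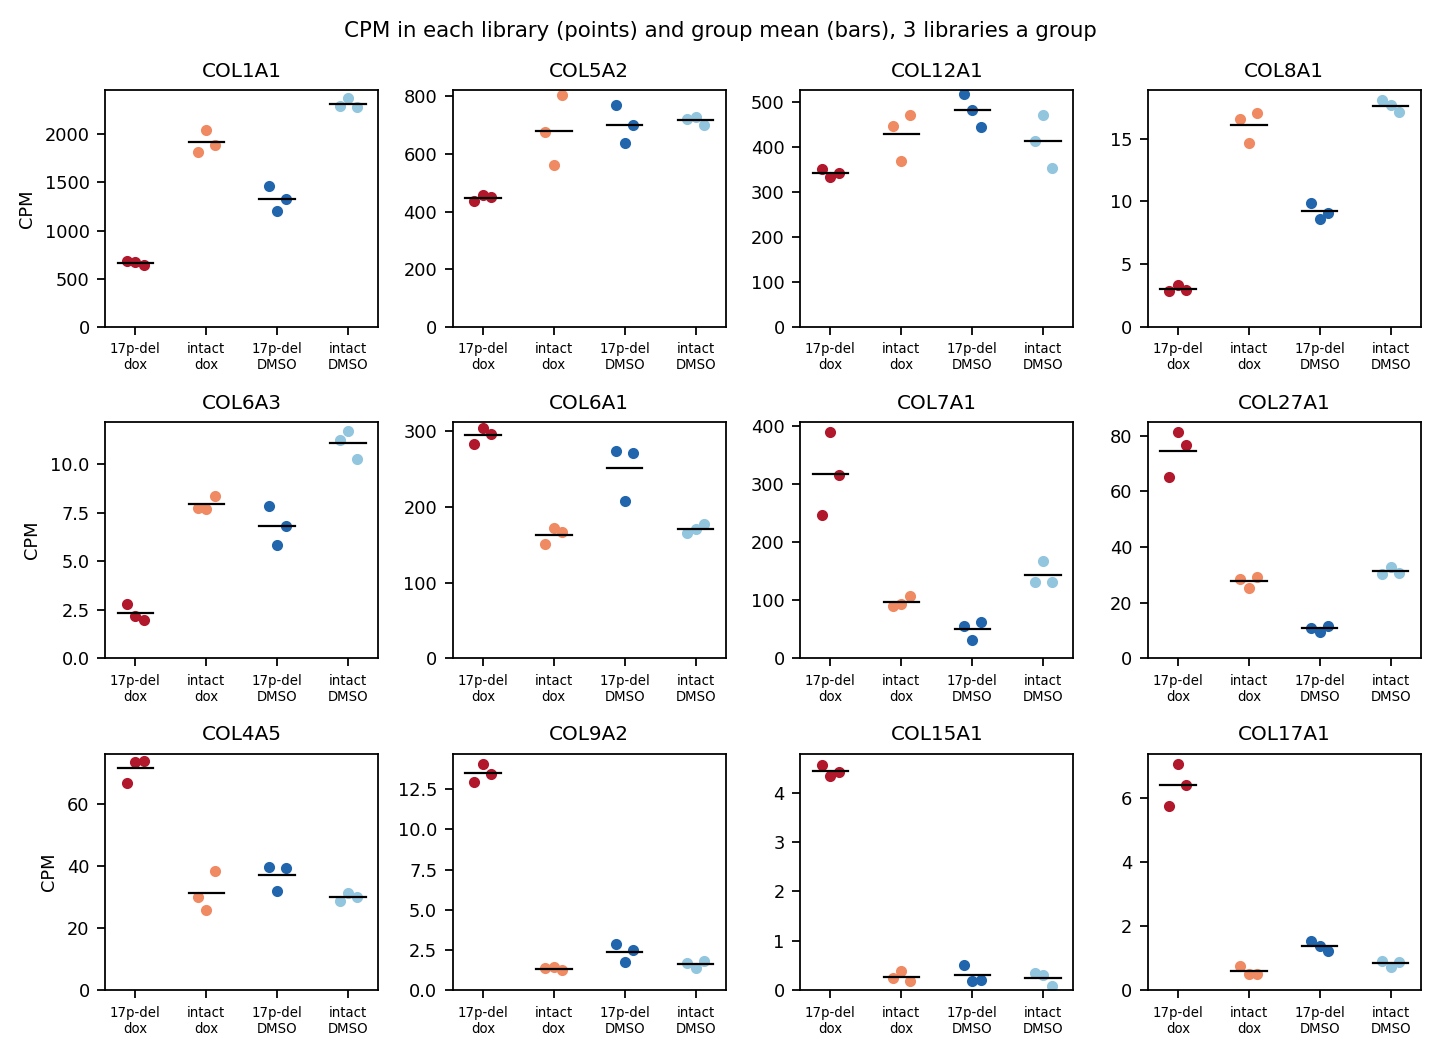
CPM of 12 members in each library, with points for libraries and a bar for the mean of each group of 3. COL1A1, COL5A2, COL12A1, COL8A1 and COL6A3 are lowest in deleted doxorubicin libraries, and COL7A1, COL27A1, COL4A5, COL9A2, COL15A1 and COL17A1 are highest there.

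In 17p-intact cells, 170 nM doxorubicin moved no collagen gene past the edgeR threshold. By edgeR 0 of 35 members rose and 0 fell, and of all genes tested 0.0275% rose and 0.0321% fell. At an unadjusted p under 0.05 there were 0 higher and 8 lower members. Of all 21803 genes 2504 were under it in either direction, and their split by direction was not counted. Limma-voom also called 0 members, with 25 genes in all. DESeq2 called 3 members lower, COL16A1, COL6A3 and COL1A2, among 460 genes called in either direction. With no filter on low counts edgeR called 4 lower, COL16A1, COL7A1, COL1A2 and COL18A1, among 196 genes. With replicate 2 of deleted DMSO left out, a library of neither group compared, COL16A1 passed as lower, at a log2 fold change of -0.60. With replicate 2 of intact doxorubicin left out, 81 genes passed in all, with 0 members higher and 0 lower. The median over the tested members was -0.18, against 0.01 over all genes.

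Although none passed, every treated library was below every DMSO library for COL1A1, COL1A2, COL3A1, COL5A1, COL6A3, COL7A1 and COL8A1. The same held for COL11A2, COL13A1, COL16A1, COL18A1 and COL27A1, and the other tested members overlapped. The largest of these log2 fold changes were -1.31, SE 0.37 for COL1A2 and -0.70, SE 0.28 for COL3A1. How many of all genes tested lacked overlap was not counted. Without that share the list describes these members only and is no measure of a shared fall. COL1A1 was at 1813, 2049 and 1893 CPM in intact doxorubicin libraries and 2292, 2372 and 2279 CPM in intact DMSO libraries (log2 fold change -0.27, SE 0.09, edgeR adjusted p = 0.263). The treated libraries were all below the DMSO libraries. COL7A1 was at 90.7, 94.4 and 107 CPM after doxorubicin and 131, 168 and 132 CPM in DMSO (log2 fold change -0.56, SE 0.22, edgeR adjusted p = 0.343), again without overlap. COL16A1 was at 8.44, 7.30 and 8.26 CPM in treated and 11.1, 12.8 and 12.3 CPM in DMSO libraries (log2 fold change -0.59, SE 0.17, edgeR adjusted p = 0.217). COL5A2 was at 677, 562 and 803 CPM and 721, 729 and 699 CPM (log2 fold change -0.07, SE 0.11, edgeR adjusted p = 0.853), with DMSO libraries inside the range of the treated ones. COL4A5 was at 30.01, 25.8 and 38.3 CPM in treated and 28.6, 31.4 and 30.1 CPM in DMSO libraries (log2 fold change 0.06, SE 0.13, edgeR adjusted p = 0.896), and COL27A1 at 28.6, 25.4 and 29.1 CPM and 30.3, 32.7 and 30.7 CPM (log2 fold change -0.17, SE 0.11, edgeR adjusted p = 0.565). COL18A1 ranged from 69.7 to 130 CPM in treated libraries, the lowest in replicate 1, and from 144 to 147 CPM in DMSO libraries.

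**Figure D3:**
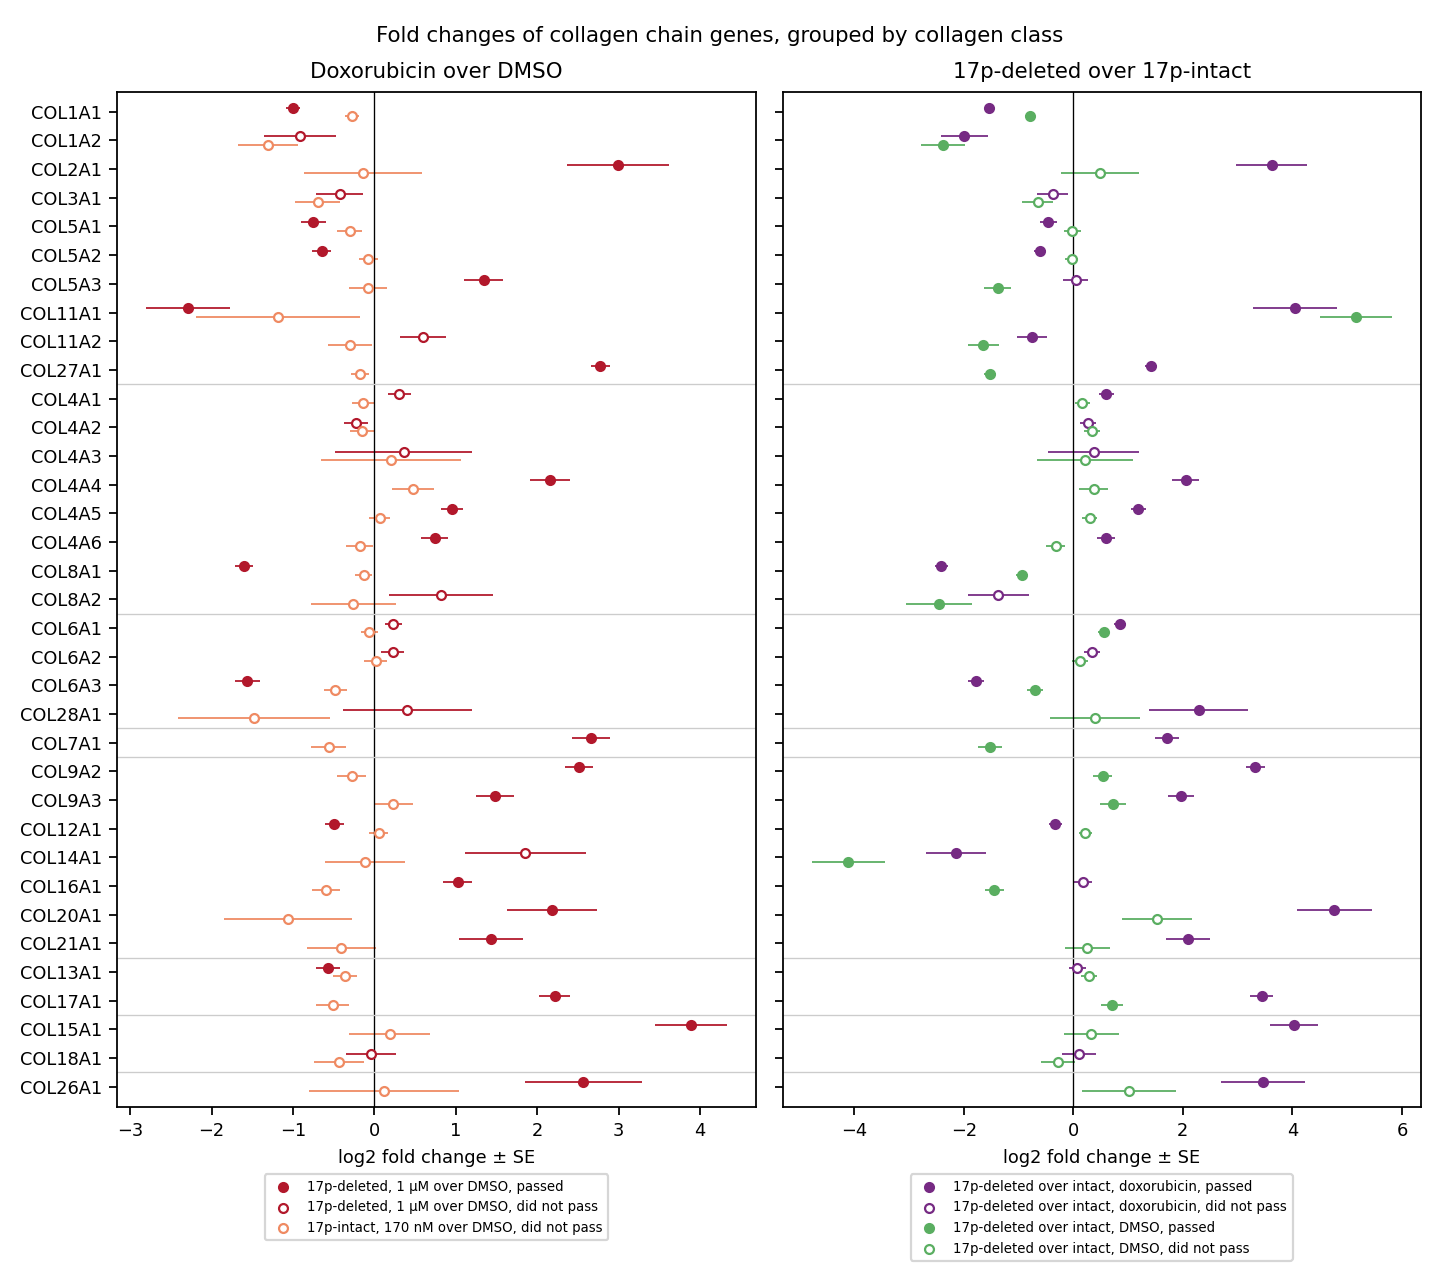
Log2 fold changes with standard errors for the 35 tested members, ordered by collagen class, for doxorubicin over DMSO in each genotype (left) and for 17p-deleted over 17p-intact cells in each treatment (right). Filled points passed the edgeR threshold, and on the left none of the intact-cell points is filled.

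The doxorubicin effects of the genotypes were compared in the same fit. The effect in deleted cells was above that in intact cells for 14 members (10.3% of all genes tested were higher) and below it for 5 (6.74% were lower), and 16 did not pass. The median difference was 0.90 over the tested members and -0.03 over all genes tested. The members with the higher effect were COL15A1 (3.70, SE 0.66), COL20A1 (3.24, SE 0.95), COL7A1 (3.22, SE 0.32), COL2A1 (3.13, SE 0.97), COL27A1 (2.95, SE 0.16), COL9A2 (2.79, SE 0.25), COL17A1 (2.73, SE 0.28), COL21A1, COL4A4, COL16A1, COL5A3, COL9A3, COL4A6 and COL4A5, in falling order of the log2 difference. Those with the lower effect were COL8A1 (-1.47, SE 0.16), COL6A3 (-1.08, SE 0.21), COL1A1 (-0.73, SE 0.12), COL5A2 (-0.58, SE 0.16) and COL12A1 (-0.55, SE 0.16). Dose and genotype cannot be told apart in any of these differences. The calls of COL2A1, COL5A2 and COL21A1 were each lost when any of 9 libraries was left out, that of COL12A1 for 8 and that of COL20A1 for 6 of the 12 libraries. The count of lower members was 3 without any 1 of the deleted doxorubicin libraries, replicate 1 or 3 of intact doxorubicin, replicate 1 of deleted DMSO, or replicate 1 or 3 of intact DMSO. COL1A1, COL8A1 and COL6A3 kept their calls whichever library was left out.

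Between the populations in DMSO, more collagen genes were lower in 17p-deleted cells than higher. Of the 35 tested members 11 fell, against 16.2% of all genes tested, and 5 rose, against 18.8%. Of 10 tested fibrillar members 5 were lower and 1 was higher, and of 8 tested network members 2 were lower and 6 did not pass. Although more members passed as lower, the median log2 fold change over the tested members was 0.16, against 0.04 over all genes tested. With the GC trend of each library removed, 9 rose and 11 fell, the additional ones being COL4A2, COL6A2, COL13A1 and COL20A1. The count of higher members was 9 with replicate 2 of deleted DMSO left out. It was 2 with replicate 1 of deleted DMSO or replicate 2 of intact DMSO left out, and 3 without replicate 3 of deleted DMSO, replicate 1 of intact DMSO or any 1 of the deleted doxorubicin libraries. The count of lower members was 11 or 12 in all of these. The comparison shares its DMSO libraries with the doxorubicin effects above.

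COL1A1 was at 1460.1, 1203 and 1328 CPM in deleted DMSO libraries and 2292, 2372 and 2279 CPM in intact DMSO libraries (log2 fold change -0.80, SE 0.09, edgeR adjusted p = 1.33e-05), with no overlap. It lies on the long arm of chromosome 17, outside 17p. The other 17q genes tested (973) had a median of -0.24, against -0.12 for 17p genes (399), and the part of either in the COL1A1 value was not tested. COL7A1 was at 55.9, 31.5 and 63.3 CPM in deleted and 131, 168 and 132 CPM in intact libraries (log2 fold change -1.52, SE 0.22, edgeR adjusted p = 1.47e-04), and COL27A1 at 11.1, 9.64 and 11.8 CPM and 30.3, 32.7 and 30.7 CPM (log2 fold change -1.53, SE 0.11, edgeR adjusted p = 3.53e-07). Both genes were thus lower in deleted cells in DMSO, and higher than in intact cells after treatment. COL8A1 was at 9.86, 8.61 and 9.09 CPM in deleted and 18.1, 17.7 and 17.1 CPM in intact libraries (log2 fold change -0.94, SE 0.11, edgeR adjusted p = 2.08e-05), and COL6A3 at 7.84, 5.82 and 6.81 CPM and 11.2, 11.7 and 10.3 CPM (log2 fold change -0.70, SE 0.14, edgeR adjusted p = 0.00213).

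Further members that fell were COL16A1, with 5.43, 3.19 and 4.71 CPM in deleted and 11.1, 12.8 and 12.3 CPM in intact DMSO libraries (log2 fold change -1.44, SE 0.18, edgeR adjusted p = 3.55e-05), and COL5A3, with 5.37, 2.33 and 4.45 CPM and 11.2, 10.4 and 10.1 CPM (log2 fold change -1.38, SE 0.24, edgeR adjusted p = 5.80e-04). COL11A2, a cartilage fibril chain, was at 1.94, 1.03 and 2.93 CPM in deleted and 6.28, 5.89 and 6.35 CPM in intact libraries (log2 fold change -1.65, SE 0.28, edgeR adjusted p = 5.33e-04). Replicate 2 of the deleted group was the lowest library for all 3 genes, which have a GC content of 62.8% to 64.2%. Without that library the log2 fold changes were -1.27, -1.13 and -1.36, and all passed. COL14A1, a FACIT chain of tendon and skin, held 2, 3 and 0 counts in deleted and 30, 30 and 39 counts in intact DMSO libraries, and COL8A2, the partner of COL8A1, held 8, 2 and 6 and 29, 32 and 34. Both passed as lower (-4.11, SE 0.67 and -2.45, SE 0.61), with folds that depend on few counts.

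Of the members that rose, COL6A1 (chr21:45981737-46005050, plus strand, hg38) was at 273, 207 and 271 CPM in deleted and 165, 170.5 and 177 CPM in intact DMSO libraries (log2 fold change 0.55, SE 0.11, edgeR adjusted p = 0.00115). It lies on chromosome 21 with COL6A2 and COL18A1, and the other tested genes of that chromosome (227) had a median log2 fold change of 0.60. The part of chromosome 21 in the COL6A1 value was not tested. COL6A2 was at 0.13, SE 0.14 and COL18A1 at -0.28, SE 0.31, and neither passed. COL11A1 was at 1.30, 1.30 and 1.52 CPM in deleted libraries, while the intact libraries held 3, 0 and 6 counts (log2 fold change 5.16, SE 0.66, edgeR adjusted p = 4.39e-05). COL17A1 was at 1.55, 1.37 and 1.23 CPM in deleted and 0.918, 0.717 and 0.895 CPM in intact libraries (log2 fold change 0.71, SE 0.20, edgeR adjusted p = 0.0134). COL9A2 (0.53, SE 0.17) and COL9A3 (0.72, SE 0.23) passed with libraries that overlapped between the groups. Their calls were each lost when any of 8 libraries was left out, with log2 fold changes of 0.37 to 0.56 and 0.51 to 0.76, and that of COL17A1 without replicate 1 of deleted DMSO or replicate 2 of intact DMSO (0.62 and 0.56).

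Among the treated libraries 17 members were higher in 17p-deleted cells, against 25.9% of all genes tested, and 9 were lower, against 21.9%. The median log2 fold change was 0.37 over the tested members and 0.02 over all genes. COL1A1 was at 684, 669.9 and 639 CPM in deleted and 1813, 2049 and 1893 CPM in intact doxorubicin libraries (log2 fold change -1.53, SE 0.09, edgeR adjusted p = 1.46e-08), the deleted libraries all far below. COL8A1, at 2.83, 3.35 and 2.90 CPM against 16.6, 14.6 and 17.1 CPM, had log2 fold change -2.41, SE 0.12, edgeR adjusted p = 2.40e-09. COL6A3 was at 2.79, 2.17 and 2.002 CPM in deleted and 7.75, 7.69 and 8.33 CPM in intact libraries (log2 fold change -1.78, SE 0.15, edgeR adjusted p = 5.18e-07), and COL5A2 at 437, 457 and 449.7 CPM and 677, 562 and 803 CPM (log2 fold change -0.61, SE 0.11, edgeR adjusted p = 6.43e-04). None of these 4 overlapped between the groups. COL7A1 was at 248, 389.8 and 315 CPM in deleted and 90.7, 94.4 and 107 CPM in intact doxorubicin libraries (log2 fold change 1.71, SE 0.22, edgeR adjusted p = 2.69e-05). COL27A1, with 65.3, 81.4 and 76.5 CPM against 28.6, 25.4 and 29.1 CPM, had log2 fold change 1.43, SE 0.11, edgeR adjusted p = 2.00e-07. COL9A2 was at 13.0, 14.1 and 13.5 CPM in deleted and 1.36, 1.44 and 1.25 CPM in intact libraries (log2 fold change 3.32, SE 0.18, edgeR adjusted p = 7.33e-09), and COL17A1 at 5.77, 7.07 and 6.41 CPM and 0.765, 0.497 and 0.519 CPM (log2 fold change 3.44, SE 0.20, edgeR adjusted p = 1.67e-08).

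By class, 4 of 8 tested network members were higher in deleted doxorubicin libraries and 1 was lower, and 4 of 7 FACIT members were higher and 2 lower. Of all genes tested 25.9% were higher and 21.9% lower. COL15A1 was at 4.57, 4.34 and 4.42 CPM in deleted and 0.246, 0.385 and 0.187 CPM in intact libraries (4.03, SE 0.44 on the log2 scale), COL4A4 at 3.44, 3.62 and 3.73 CPM and 0.882, 0.547 and 1.16 CPM (2.05, SE 0.25), and COL9A3 at 35.2, 36.8 and 35.8 CPM and 6.42, 11.97 and 9.13 CPM (1.97, SE 0.24). COL4A5 was at 66.8, 73.5 and 73.8 CPM in deleted and 30.01, 25.8 and 38.3 CPM in intact libraries (1.18, SE 0.13), and COL4A6 at 19.8, 21.6 and 21.3 CPM and 12.7, 11.2 and 17.5 CPM (0.60, SE 0.17). All 5 were separate between the groups. COL4A1 was at 157, 156 and 166 CPM in deleted and 101.8, 83.2 and 130.2 CPM in intact libraries (0.60, SE 0.14), and COL6A1 at 282, 304 and 296 CPM and 151, 172 and 167 CPM (0.85, SE 0.11). The chromosome 21 genes other than collagens had a median of 0.53 in this comparison. COL4A2, at 280.0, 284 and 285 CPM in deleted and 211, 218 and 278 CPM in intact libraries, did not pass (0.26, SE 0.15), and neither did COL6A2, at 144, 155 and 148 CPM and 100.6, 131 and 122 CPM (0.34, SE 0.14).

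The low members COL20A1 (4.77, SE 0.68), COL2A1 (3.62, SE 0.65), COL21A1 (2.10, SE 0.40), COL11A1, COL26A1 and COL28A1 were higher as well, the last 5 with at most 127 counts in any of these libraries. For COL11A1 the intact group held 4 counts in all, in replicate 3, and its log2 fold change of 4.05 was 7.50 without that library. COL28A1 lost its call when any of 10 libraries was left out, with log2 fold changes of 1.37 to 2.55, and was at 3.82 without replicate 1 of intact doxorubicin. Also lower in deleted cells were COL1A2 (-1.99, SE 0.42), COL14A1 (-2.13, SE 0.55), COL11A2 (-0.75, SE 0.27), COL5A1, at 226, 227 and 243 CPM in deleted and 285, 294 and 375 CPM in intact libraries (-0.46, SE 0.16), and COL12A1, at 352, 333 and 341 CPM and 445, 368 and 472 CPM (-0.33, SE 0.12). COL11A2, COL5A1 and COL12A1 lost their calls when any of 4, 3 and 3 libraries was left out, with log2 fold changes of -0.76 to -0.67, -0.49 to -0.33 and -0.37 to -0.25. COL4A6 lost its call without replicate 1 or replicate 2 of intact doxorubicin, at 0.50 and 0.43. Neither COL16A1 (0.18, SE 0.17) nor COL5A3 (0.04, SE 0.23), which had been lower in deleted cells in DMSO, passed in this comparison.

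The difference in RNA between partner chains of one trimer varied by pair, small for COL6A1 and COL6A2 and largest for COL1A1 and COL1A2. COL1A1 exceeded COL1A2, per kilobase, by a ratio of 4902 ± 2509.5 in deleted doxorubicin, 2982 ± 1412 in intact doxorubicin, 3895 ± 635 in deleted DMSO and 1299.9 ± 170.3 in intact DMSO libraries (SD, n = 3 each). The deleted doxorubicin libraries overlapped with those of intact doxorubicin and deleted DMSO, and the intact DMSO libraries were below all others. In the deleted doxorubicin libraries COL1A2 (ENSG00000164692.18, chr7:94394561-94431232, plus strand, hg38) held 8, 28 and 8 counts, and in the intact doxorubicin libraries 52, 32 and 83. The deleted and intact DMSO libraries held 19, 22 and 27 and 125, 115 and 135. COL1A2 was lower in deleted than in intact cells both in doxorubicin and in DMSO (-1.99, SE 0.42 and -2.38, SE 0.40).

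Collagen VI also differed between its chains. The per-kilobase ratio of COL6A1 to COL6A3 was 329 ± 63.7 in deleted doxorubicin, 52.3 ± 3.87 in intact doxorubicin, 93.1 ± 6.85 in deleted DMSO and 39.3 ± 3.85 in intact DMSO libraries. The ratio of COL6A1 to COL6A2 was 1.61 ± 0.0178, 1.14 ± 0.0819, 1.62 ± 0.139 and 1.19 ± 0.00670 in the same order. Both ratios were higher in deleted than in intact libraries with no overlap, in either treatment. COL5A2 to COL5A1 was 2.31 ± 0.0965 in deleted doxorubicin and 2.23 ± 0.440 in deleted DMSO, and 2.56 ± 0.278 and 2.18 ± 0.0118 in the intact groups. COL4A2 to COL4A1, the pair that shares the 126 bases shown above, was 1.81 ± 0.0551 in deleted doxorubicin and 2.59 ± 0.281 in deleted DMSO libraries, with 2.32 ± 0.306 and 2.32 ± 0.0411 in the intact groups. The deleted doxorubicin libraries were the lowest of all 12 for this pair. COL4A5 to COL4A6, the pair on the X chromosome, was 3.56 ± 0.0494 in deleted and 2.38 ± 0.0904 in intact doxorubicin libraries, against 3.13 ± 0.330 and 2.0003 ± 0.0624 in the deleted and intact DMSO libraries. The third collagen V chain was well below its partners. COL5A1 to COL5A3 was 16.4 ± 0.121 in deleted and 23.5 ± 2.08 in intact doxorubicin libraries, against 73.2 ± 12.5 and 27.2 ± 1.28 in the deleted and intact DMSO libraries. COL9A3 to COL9A2 was 3.08 ± 0.0614 in deleted and 7.85 ± 2.15 in intact doxorubicin libraries, against 6.23 ± 1.25 and 5.57 ± 0.482 in the deleted and intact DMSO libraries. COL8A1 to COL8A2 ranged from 11.3 to 259 over the 12 libraries, and COL11A2 to COL11A1 was 12.3 ± 1.09 in deleted doxorubicin and 1.60 ± 0.656 in deleted DMSO, with few COL11A1 counts in the intact libraries. COL4A4 exceeded COL4A3, which held 0 to 22 counts in a library and overlaps AC097662.1 as described above. The ratios carry no test here and rest on the transcript lengths used.

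**Figure D4:**
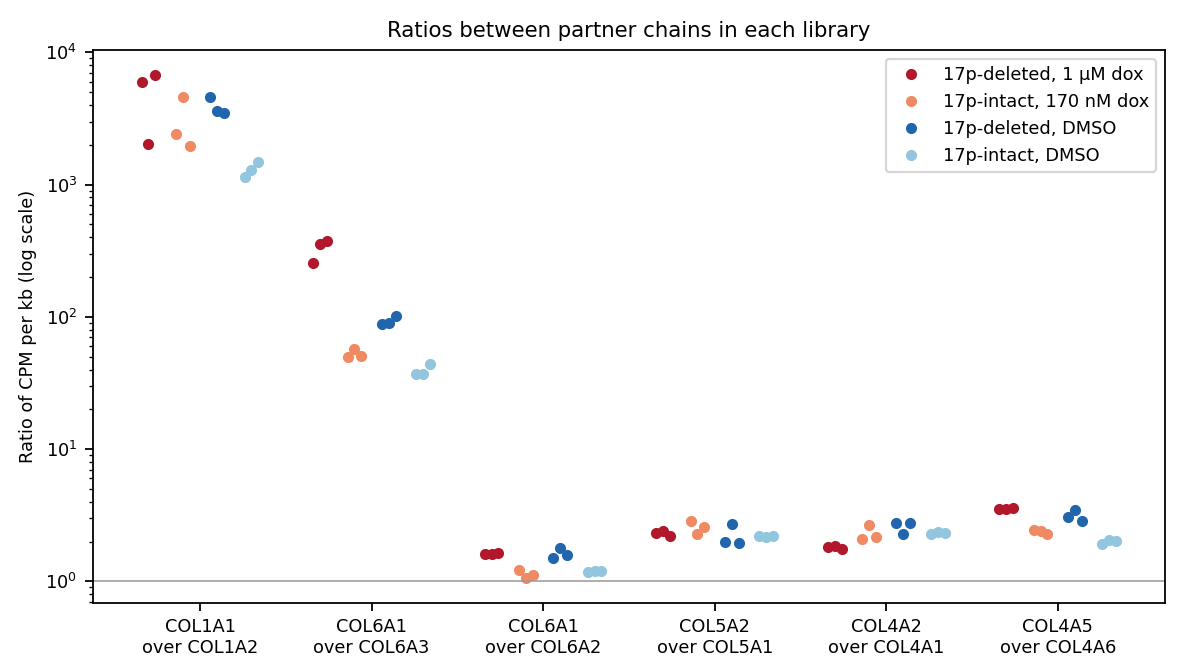
Ratio of CPM per kilobase between partner chains in each of the 12 libraries on a log axis, with 1 point for each library. COL1A1 over COL1A2 lies at 1139 or more in every library, and COL6A1 over COL6A3 is highest in the deleted doxorubicin libraries.

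These shifts changed the make-up of collagen RNA. Members took 0.335% ± 0.0110 of all counts in deleted doxorubicin, 0.417% ± 0.0334 in intact doxorubicin, 0.404% ± 0.0729 in deleted DMSO and 0.503% ± 0.0185 in intact DMSO libraries (SD, n = 3 each). COL1A1 took 20.3% ± 1.05 of the collagen counts in deleted and 44.6% ± 3.83 in intact doxorubicin libraries. In DMSO libraries its share was 33.1% ± 1.59 in deleted and 46.8% ± 0.497 in intact cells. COL7A1 took 9.66% ± 1.89 in deleted doxorubicin, 2.25% ± 0.0441 in intact doxorubicin, 1.23% ± 0.308 in deleted DMSO and 2.90% ± 0.332 in intact DMSO. All fibrillar members together made up 43.8% ± 0.908 of collagen counts in deleted doxorubicin, 68.7% ± 1.24 in intact doxorubicin, 60.7% ± 1.20 in deleted DMSO and 70.2% ± 0.661 in intact DMSO libraries. For COL1A1, COL7A1 and the fibrillar share, the deleted doxorubicin libraries lay outside the range of every other library. These shares are of counts, so long transcripts weigh more than short ones.

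**Figure D5:**
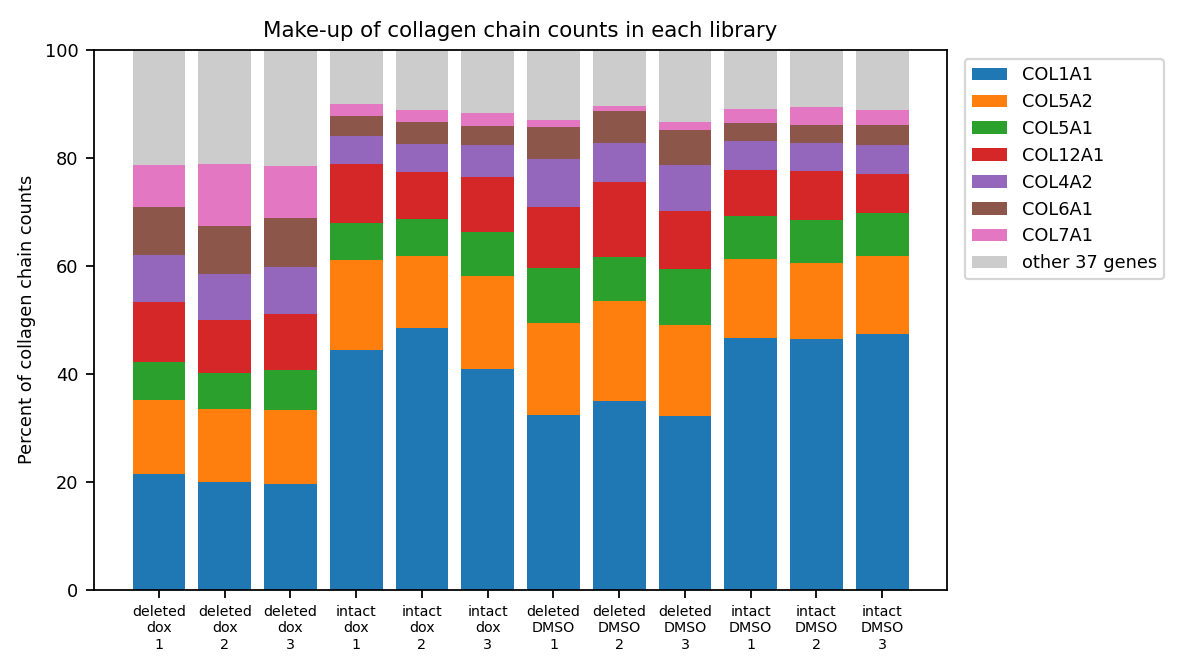
Share of the counts of all 44 members taken by 7 of them in each library, in percent, with the rest in grey. COL1A1 averages 20.3% in the deleted doxorubicin libraries and at least 33.1% in the other groups, and COL7A1 averages 9.66% there.

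Genes that make, process and bind collagen moved in both directions. Of 47 such genes 44 were tested. In deleted cells doxorubicin raised 7 of them and lowered 13, with a median log2 fold change of -0.15, beside the 17.5% and 13.1% of all genes given above. In intact cells 0 passed by edgeR in either direction, with 1 higher and 3 lower at an unadjusted p under 0.05. Of all 21803 genes tested, 2504 were under that p in intact cells, in either direction. Limma-voom also called 0 there, and DESeq2 called 2 lower. Between the genotypes 6 were higher and 12 lower in DMSO, beside 18.8% and 16.2% of all genes, and 8 higher and 18 lower in doxorubicin, beside 25.9% and 21.9%. For the difference of the doxorubicin effects 7 were higher and 10 lower, beside 10.3% and 6.74%.

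CREB3L1, a transcription factor known to drive Col1a1 in mouse bone cells, was at 28.96 ± 1.30 CPM in deleted doxorubicin, 94.5 ± 10.3 in intact doxorubicin, 65.3 ± 4.96 in deleted DMSO and 99.6 ± 2.35 in intact DMSO libraries (SD, n = 3 each). It fell with doxorubicin in deleted cells (log2 fold change -1.17, SE 0.10, edgeR adjusted p = 7.32e-07) and was lower in deleted cells in DMSO (-0.61, SE 0.10). LOX, which cross-links fibrillar collagen, was at 4.07 ± 0.313 CPM in deleted doxorubicin and 20.8 ± 3.40 in intact doxorubicin libraries, and at 14.8 ± 3.07 and 30.9 ± 1.70 in deleted and intact DMSO libraries. Its relative LOXL2 was at 145 ± 4.39, 395 ± 32.0, 239.7 ± 30.3 and 454 ± 5.60 CPM in the same order of groups. Both fell with doxorubicin in deleted cells (LOX -1.87, SE 0.16, LOXL2 -0.73, SE 0.10), while LOXL1 (0.49, SE 0.17) and LOXL3 (0.66, SE 0.17) rose.

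Of 18 genes for hydroxylation and folding, 2 rose and 3 fell with doxorubicin in deleted cells, numbers near the 17.5% and 13.1% over all genes. The same shares stand beside the counts of export and propeptide genes below. P3H2, a prolyl 3-hydroxylase known for acting on basement membrane collagen, was at 162 ± 2.76 CPM in deleted doxorubicin and 53.1 ± 2.13 CPM in deleted DMSO libraries (log2 fold change 1.61, SE 0.07, edgeR adjusted p = 3.32e-09). In intact cells it was at 97.4 ± 3.45 CPM after doxorubicin and 119 ± 1.21 CPM in DMSO. P4HA2, a subunit of prolyl 4-hydroxylase, rose (0.87, SE 0.08) and P4HA1, the alternative subunit, fell (-0.41, SE 0.11). COLGALT2, which adds galactose to collagen, fell (-1.58, SE 0.13), as did SERPINH1, the collagen chaperone HSP47 (-0.48, SE 0.11). P4HB, the shared subunit of prolyl 4-hydroxylase, at 482 ± 4.26 CPM in deleted doxorubicin and 536 ± 71.7 CPM in deleted DMSO libraries, was the most abundant of those that did not pass. Of 6 genes of export, transcription or mRNA binding 3 fell, CREB3L1, SEC23A (-0.47, SE 0.11) and SEC24D (-0.41, SE 0.09), the last 2 parts of the COPII coat, and the other 3 did not pass. Of 7 tested genes of propeptide removal BMP1 rose (0.75, SE 0.20), and TLL1 (-1.35, SE 0.15), ADAMTS2 (-0.94, SE 0.17) and PCOLCE2 (-0.40, SE 0.10) fell.

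Of 9 tested receptor genes 2 rose and 2 fell, numbers near the 17.5% and 13.1% over all genes. DDR1, a receptor tyrosine kinase that binds collagen, was at 169.6 ± 15.1 CPM in deleted doxorubicin libraries and 58.5 ± 19.7 CPM in deleted DMSO libraries (log2 fold change 1.54, SE 0.22, edgeR adjusted p = 1.06e-04). DDR2, its relative in mesenchymal cells, was at 2.16 ± 0.333 CPM and 6.50 ± 1.003 CPM (log2 fold change -1.59, SE 0.18, edgeR adjusted p = 1.50e-05). The integrin chain gene ITGA11, whose product binds collagen I, rose (1.08, SE 0.11) and ITGA10 fell (-0.89, SE 0.29), while ITGB1, the shared partner chain, at 538 ± 32.1 CPM in treated and 703 ± 152 CPM in DMSO libraries, did not pass (-0.39, SE 0.14). Between the genotypes in DMSO the lowest p-values of the whole list were those of TLL1, at 27.1 ± 1.24 CPM in deleted and 2.55 ± 0.406 CPM in intact libraries (log2 fold change 3.41, SE 0.16, edgeR adjusted p = 9.57e-09), P3H2 (-1.16, SE 0.07) and TLL2 (-2.26, SE 0.19). The list was chosen with earlier results of these data known, and its counts describe it without a test of the list.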

How the data were processed

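The authors deposited raw read counts per gene, 1 column for each of the 12 libraries. Per the labels' protocols, libraries were made with a KAPA RNA kit and read as paired ends. Per the submitters' processing notes, the tools were bcl2fastq, STAR 2.7.9a and featureCounts of Subread 2.0.1, and the build was hg38. No source used here gives the annotation release or the strand setting. Gene names and positions came from GENCODE 29, which named 60641 of 60660 identifiers. Promoter sequences came from RefSeq (GRCh38.p14).

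Counts were scaled by trimmed means of M values, filtered with filterByExpr and fitted with edgeR 4.0.16 (R 4.3.3) in 1 model of the 4 groups. Quasi-likelihood F tests were adjusted by Benjamini-Hochberg over 21803 genes, and the fit was tested on simulated data. Alternatives used DESeq2 1.42.0, limma-voom (limma 3.58.1), other scalings and filters, GC and length corrections, a replicate block, and leaving out libraries. Levels per kilobase used the longest GENCODE transcript. Total counts of 66150539 to 99142099 put the floor of 3 counts at 0.0305 to 0.0444 CPM, which covers counting error only. Replicates of a group differed by more than sampling noise (chi-square per degree of freedom 8.42 to 204). All columns mapped to a sample. Values were given for members past the threshold with a mean of at least 1 CPM, for abundant members that did not pass and for partner chains. From the lists of synthesis genes up to 3 with the lowest p in each direction were taken. The members, classes, lists and tests were chosen with earlier results of these data known.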

Additional observations from a re-analysis of the deposited data

Results flagged for a closer look

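For 19 members the effect of doxorubicin differed between the genotypes, by edgeR's test of the difference itself. Of these 14 were higher and 5 lower in deleted cells, beside 10.3% and 6.74% of all genes tested. Each value below is the log2 effect in 17p-deleted cells minus that in 17p-intact cells, with its standard error and the p adjusted over all genes tested. Doses differed with genotype (1 µM in deleted and 170 nM in intact cells), and their parts cannot be told apart.

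The effect in deleted cells was lower for the fibrillar, FACIT, beaded-filament and network chains COL8A1 (-1.47, SE 0.16, adjusted p = 1.97e-05), COL6A3 (-1.08, SE 0.21, adjusted p = 0.00255), COL1A1 (-0.73, SE 0.12, adjusted p = 9.87e-04), COL5A2 (-0.58, SE 0.16, adjusted p = 0.0261) and COL12A1 (-0.55, SE 0.16, adjusted p = 0.0349). Within each genotype, COL8A1 had a log2 effect of -1.60, SE 0.11 in deleted and -0.13, SE 0.11 in intact cells.

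The effect was higher for the basement membrane and junction chains COL15A1 (3.70, SE 0.66, adjusted p = 0.00152), COL7A1 (3.22, SE 0.32, adjusted p = 9.87e-06), COL17A1 (2.73, SE 0.28, adjusted p = 1.54e-05), COL4A4 (1.68, SE 0.35, adjusted p = 0.00485), COL4A6 (0.92, SE 0.24, adjusted p = 0.0163) and COL4A5 (0.89, SE 0.19, adjusted p = 0.00499). The main basement membrane pair, COL4A1 (0.44, SE 0.20) and COL4A2 (-0.07, SE 0.21), did not pass. Neither did COL4A3 (0.15, SE 1.20) or the multiplexin COL18A1 (0.39, SE 0.44). The COL7A1 effect was 2.66, SE 0.23 in deleted and -0.56, SE 0.22 in intact cells. It was also higher for the FACIT chains COL20A1 (3.24, SE 0.95, adjusted p = 0.0323), COL9A2 (2.79, SE 0.25, adjusted p = 3.94e-06), COL21A1 (1.84, SE 0.58, adjusted p = 0.0432), COL16A1 (1.62, SE 0.25, adjusted p = 4.51e-04) and COL9A3 (1.25, SE 0.33, adjusted p = 0.0187). Among fibrillar chains it was higher for COL2A1 (3.13, SE 0.97, adjusted p = 0.0399), COL27A1 (2.95, SE 0.16, adjusted p = 7.87e-08) and COL5A3 (1.42, SE 0.33, adjusted p = 0.00924). COL2A1 and COL21A1 rest on at most 127 counts in a library. The calls of COL2A1, COL5A2 and COL21A1 were each lost when any of 9 libraries was left out. That of COL12A1 was lost for 8 libraries and that of COL20A1 for 6.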

How the results depend on the processing

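Across the 26 alternatives no member that passed changed direction in the comparison it passed, and members that did not pass were not followed. In deleted cells doxorubicin effects kept their call in 585 of the member-by-setting checks and lost it in 11, against 381 and 33 for genotype in DMSO, 632 and 39 for genotype in doxorubicin, and 416 and 58 for the difference of effects. Requiring a 2-fold change as well left 9 members for genotype in DMSO (1 higher, 8 lower), by construction. For doxorubicin in intact cells, where 0 passed, 4 were lower with no filter and 3 with DESeq2, and the cause was not tested. Leaving out 1 library gave totals of 13 to 20 for genotype in DMSO, 0 to 1 for doxorubicin in intact cells, 21 to 24 for doxorubicin in deleted cells, 22 to 28 for genotype in doxorubicin and 14 to 19 for the difference. Removing the GC trend moved the share of higher calls for genotype in DMSO to 45%, against 31.2%. Without the 2 libraries of highest mitochondrial share there were 10 higher and 11 lower. Scaling by library totals shifted the median of all genes in the difference by 0.11 and left 14 higher and 3 lower.

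Same-numbered libraries did not pair (correlations of -0.224 to 0.118, 2 of 18 above 0.1). With the replicate number as a block, calls were 4 higher and 11 lower for genotype in DMSO, 0 and 0 by edgeR for doxorubicin in intact cells, 15 and 8 in deleted cells, 16 and 7 for genotype in doxorubicin, and 12 and 4 for the difference. Depth limits the low members. Of the 9 not tested, COL10A1 and COL24A1 passed as higher for genotype in doxorubicin with no filter, and COL24A1 and COL25A1 passed there without replicate 1 of deleted doxorubicin.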
